A study of Homo sapiens with 12 samples.

Results

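The response of a cell to DNA damage was set against its response to inhibition of MDM2, gene by gene. The cells were U2OS, an established line from a human bone tumour (osteosarcoma) in which p53 is wild type. The series holds 12 expression arrays (Affymetrix Human Genome U133 Plus 2.0) in 4 groups of 3, and all 12 were used. One group had no treatment and was the control of cells kept for 24 hours in 0.6 µg/ml doxorubicin. Another group had 0.1% DMSO and was the control of cells kept for 24 hours in 10 µM nutlin-3. For each gene the response to doxorubicin was its log2 change against untreated cells, and the response to nutlin-3 its log2 change against DMSO. The difference is the first response minus the second, so that a positive value means relatively more transcript with doxorubicin. A single dose of each agent was used and the doses were not matched in effect, so the difference holds for these doses only. Nothing in the labels says that the replicates came from separate cultures, so the p-values rest on a spread that may be technical, and 3 arrays a group limit the precision of every value. In bulk samples fewer cells of a kind and less RNA per cell cannot be told apart.

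Doxorubicin is an anthracycline that sits between base pairs of DNA and traps topoisomerase II on broken strands. The breaks activate the ATM and ATR kinases, which stabilise p53 and also act through checkpoints and factors that do not need it. Nutlin-3 fills the pocket of MDM2, the ubiquitin ligase that binds p53, so p53 accumulates without a break in DNA. In both cases p53 raises *CDKN1A*, whose product p21 holds the retinoblastoma family in the form that represses E2F target genes and, through the DREAM complex, genes of mitosis.

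Of the osteosarcoma markers, *COL1A1*, *SPARC* and *RUNX2* had mean signals of 29900, 21300 and 1630 in untreated cells, while *SP7*, *COL1A2*, *ALPL* and *IBSP* lay under the filter of 49.3 signal units on mean log2 level. The deposited values are linear MAS5 signals and were analysed as log2(signal + 16). A gene was called at an adjusted p under 0.05 (limma, Benjamini-Hochberg over 13673 genes).

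The agents differed over much of the measured transcriptome. The difference was called for 5396 of 13673 genes (39.5%). Doxorubicin had the higher response in 2982 (21.8%) and the lower in 2414 (17.7%). Doxorubicin itself changed 55.7% of genes and nutlin-3 26.4%. The median difference of all genes was 0.07, and higher genes made up 55.3% of the calls. Under median centring of the arrays the all-gene value moved to -0.08 and the share of higher calls to 39.6%, so the balance of higher and lower calls rests on the scaling.

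The called genes were set apart by what each agent did. Those that changed with doxorubicin and were not called with nutlin-3 numbered 3230 (23.6%), 1656 with a positive and 1574 with a negative difference. For 1199 and 1345 of these the 95% interval of the nutlin-3 response lay within 1.5-fold of no change, which bounds it rather than only missing the threshold. Genes that changed with nutlin-3 and were not called with doxorubicin numbered 556 (4.07%), of which 367 fell and 189 rose with nutlin-3, and the doxorubicin response of 310 and 172 of them was bounded in the same way. Opposite changes, called in both responses with different signs, were found for 494 genes (3.61%). A further 922 genes (6.74%) changed the same way with unequal size, and 194 (1.42%) had a called difference while neither response was called. The scatter of the nutlin-3 response against the doxorubicin response shows these classes as bands along each axis and in opposite quadrants.

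**Figure D1:**
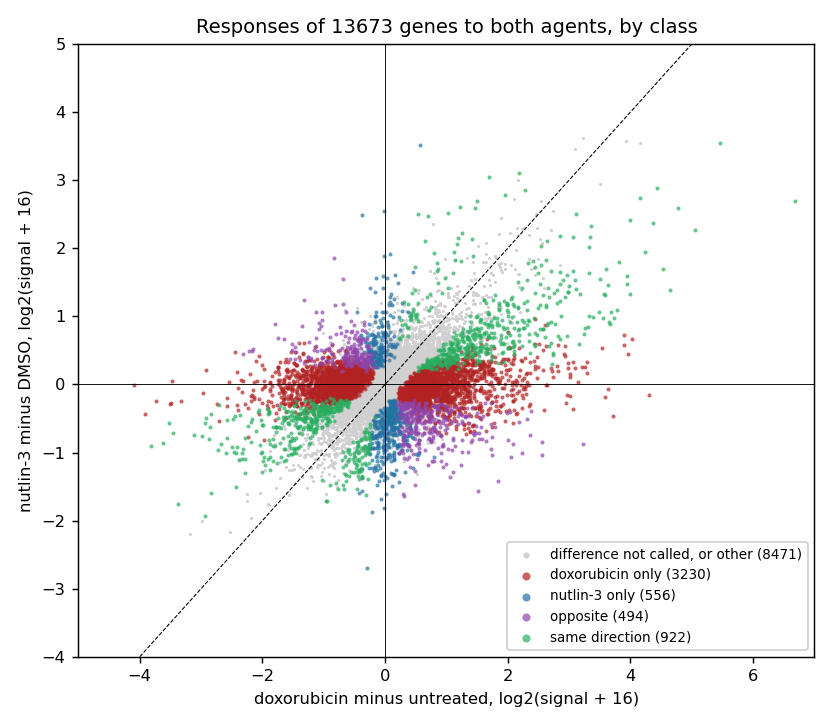
Each point is 1 of 13673 genes, with the doxorubicin response (log2, horizontal) and the nutlin-3 response (log2, vertical); colours mark the classes and grey the genes whose difference was not called or fell in no class. The 3230 doxorubicin-only genes lie along the horizontal axis, the 556 nutlin-3-only genes along the vertical axis and the 494 opposite genes in the upper left and lower right quadrants, while the dashed line marks equal responses.

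Both controls and 3′ to 5′ ratios, a quality measure, bear on these values. DMSO differed from untreated cells at 1930 genes (14.1%). As an alternative added after the data were seen, the controls were exchanged between the agents, so that each was set against the other's control. The gap between DMSO and untreated cells then enters the difference with its sign turned, so the exchange is not a matched comparison. It shows only how far a value depends on that gap. With it, 311 of the 494 opposite genes were again opposite and 442 kept the signs of both responses. In all, 1490 genes were opposite. The other classes kept fewer of their genes, 1631 (50.5%) with doxorubicin only, 229 (41.2%) with nutlin-3 only and 495 (53.7%) that changed the same way. Compared without any control, doxorubicin against nutlin-3 was called with the sign of the difference for 483 of the 494 and for 4816 (89.3%) of the 5396. This direct comparison was called, in either direction, for 7802 of all 13673 genes. The same treated arrays enter it and the difference, so the shared signs were largely built in and are no separate support. The ratio of 3′ to 5′ probe sets for *ACTB* was 2.48, 3.29 and 3.59 with doxorubicin and 1.44, 1.57 and 1.58 in untreated cells. Its mean was 3.12 ± 0.577 against 1.53 ± 0.0754 (SD, n = 3, exact 2-sided permutation p = 0.1, the smallest possible). With nutlin-3 it was 1.31 ± 0.026 against 1.28 ± 0.0281 with DMSO (SD, n = 3). With doxorubicin the ratio of dap, a bacterial transcript added during labelling, was also higher (mean 5.79 against 2.71 untreated). That of *GAPDH* was 1.07 against 1.02. The *ACTB* and dap ratios move with every doxorubicin result, and their part in these results was not tested. With doxorubicin array 1 alone in its group, the array with the lowest *ACTB* and dap ratios, the median difference of all genes was 0.08. That value rests on the scaling. Among the gene lists, 13 median differences moved by more than the spread between replicates and 24 did not. A single array gives no spread of its own, and its *ACTB* ratio of 2.48 still lay above all untreated arrays.

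Opposite changes that rose with doxorubicin and fell with nutlin-3 numbered 304, with a median response of 0.64 to doxorubicin and -0.54 to nutlin-3, and 216 of them differed at least 2-fold. The largest was *CA2*, which encodes the cytosolic carbonic anhydrase II. Its signal was 264, 232 and 362 in untreated cells and 2805, 2590 and 2935 with doxorubicin, against 383, 447 and 496 with DMSO and 226, 227 and 248 with nutlin-3. Each treated group stood clear of its own control, on opposite sides, giving responses of 3.23 and -0.87 and a difference of 4.10 (SE 0.20, limma adjusted p = 5.5e-10). The genes of largest difference in each class were named only if treated and control arrays did not overlap for each called response. Their separation is thus no further support. The nutlin-3 arrays of *CA2* reached into the range of the untreated arrays, since DMSO itself was 0.62 above untreated, and with exchanged controls the difference was 2.86. *TMEM158*, a membrane protein gene induced by oncogenic RAS, gave 1155, 1180 and 1256 in untreated cells, 7028, 7369 and 6935 with doxorubicin, 1568, 1505 and 1406 with DMSO and 859, 802 and 809 with nutlin-3. Here nutlin-3 lay under all arrays of both controls, and the difference was 3.40 (SE 0.11, limma adjusted p = 1.2e-11).

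Also among these 304, *IDH2*, the mitochondrial isocitrate dehydrogenase that uses NADP, had signals of 540, 628 and 472 untreated, 2632, 2730 and 3228 with doxorubicin, 540, 616 and 579 with DMSO and 368, 356 and 299 with nutlin-3. The controls overlapped one another and the treated groups lay above and below them (difference 3.10, SE 0.17, limma adjusted p = 2.2e-09). *ERFE*, which encodes erythroferrone, a hormone that lowers hepcidin, changed by 2.09 and -0.87, and *PFKFB4*, a bifunctional enzyme that sets the level of fructose 2,6-bisphosphate, by 2.19 and -0.55. *IL17RB*, a receptor chain for interleukin-25, changed by 2.05 and -1.07 and *RHBDL3*, a rhomboid protease relative, by 1.51 and -1.56. The Wnt receptor gene *FZD1* changed by 1.80 and -0.62, the antiviral gene *IFI6* by 1.5 and -0.42, the cytidine deaminase gene *APOBEC3B* by 0.59 and -0.49, and *GCLC*, the catalytic subunit of glutathione synthesis, by 0.86 and -0.34. *CCM2L*, *TTC9* and *KCNG3* had differences of 3.59, 3.25 and 2.82. *UBE2QL1* had one of 3.25 that came to 1.02 with exchanged controls, its DMSO arrays being 1.11 above untreated.

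The reverse pattern, a fall with doxorubicin and a rise with nutlin-3, was found for 190 genes, with median responses of -0.55 and 0.44. *ABAT*, the transaminase that breaks down the transmitter GABA, had signals of 726, 781 and 869 untreated, 424, 445 and 438 with doxorubicin, 608, 694 and 737 with DMSO and 2359, 2453 and 2628 with nutlin-3. The nutlin-3 arrays stood far above all others and the doxorubicin arrays below all others, a difference of -2.68 (SE 0.14, limma adjusted p = 1.2e-09). For *NTM*, which encodes the neural adhesion protein neurotrimin, the larger change was the fall, from 6828, 6098 and 7261 to 1258, 1445 and 1295 with doxorubicin, while nutlin-3 moved it from 6723, 6091 and 6825 to 9347, 8567 and 8888. Its responses were -2.32 and 0.45, with controls that overlapped, and its difference was -2.77 (SE 0.12, limma adjusted p = 1.4e-10). *NAV3*, a neuron navigator gene, changed by almost the same amount each way, -1.32 and 1.24 (difference -2.55, SE 0.14, limma adjusted p = 1.2e-09). Its arrays read 268, 282 and 291 with doxorubicin and 2017, 1933 and 1954 with nutlin-3, around control arrays between 668 and 839.

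*MYOF*, which encodes the membrane repair protein myoferlin, changed by -1.79 and 0.89, and the potassium channel gene *KCNQ5* by -2.17 and 0.49. *EPHB1*, an ephrin receptor gene, changed by -0.69 and 1.55, and the long non-coding RNA *PICSAR* by -1.36 and 0.86. *RPL22L1*, a paralog of the ribosomal protein gene *RPL22*, changed by -2.22 and 0.49. The ribosomal protein genes *RPL34* (-0.62 and 0.49) and *RPL3* (-0.57 and 0.30) were opposite too, as were the nuclear body gene *SP100* (-0.38 and 0.80) and *MYC*, the growth-promoting transcription factor gene (-0.49 and 0.36). The metallothionein genes *MT1H* and *MT1G* had differences of -2.43 and -2.33, which are uncertain for each gene, since the copies of this family are near-identical and their probe sets can share signal. *ROR1*, a Wnt5a receptor gene, shows how much a control can weigh: it changed by -1.47 and 0.55, but DMSO lay 2.00 below untreated, and the difference of -2.02 became 1.98 with exchanged controls.

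**Figure D2:**
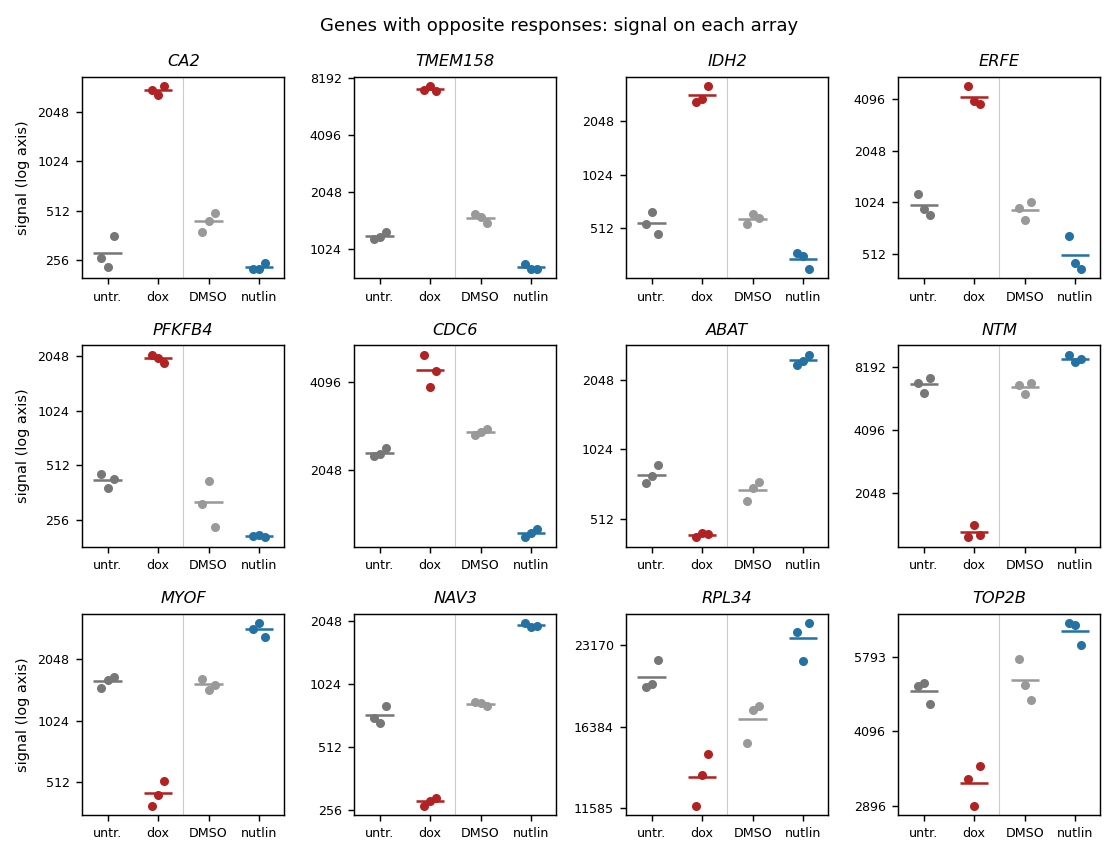
Signal on each of the 12 arrays (points, log axis) and the mean of each group of 3 (lines) for 12 genes with opposite responses, doxorubicin beside its untreated control and nutlin-3 beside its DMSO control. In *CA2*, *TMEM158*, *IDH2*, *ERFE*, *PFKFB4* and *CDC6* doxorubicin lies above and nutlin-3 below its control, and in *ABAT*, *NTM*, *MYOF*, *NAV3*, *RPL34* and *TOP2B* the order is turned.

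Within the cell cycle, genes of DNA replication and genes of mitosis had unlike differences between the agents. Of 53 measured genes of DNA replication and the G1/S transition, 46 fell with nutlin-3 (1900 of all 13673 genes). With doxorubicin 22 of the 53 fell and 13 rose (3504 and 4112 of all genes). The difference was higher with doxorubicin for 40 of the 53 (75.5%, against 21.8% of all genes). It was lower for 4 (7.55%, against 17.7%), with a median of 0.78 against 0.07 over all genes. By class, 15 members changed with nutlin-3 only, 8 were opposite and 17 changed the same way with unequal size. The list of homologous recombination and Fanconi repair had 15 of 21 members higher (71.4%) and 0 lower, with a median difference of 0.81. Of 45 mitotic genes, in contrast, 39 fell with doxorubicin and 44 with nutlin-3, with median responses of -0.84 and -0.91, and the difference was called for 9 higher (20%) and 7 lower (15.6%), near the shares of all genes. The median difference of the mitotic list, 0.06, was -0.09 with median centring, while those of replication and recombination were 0.62 and 0.66 there. With doxorubicin array 1 alone the medians were 0.72, 0.85 and 0.09 for replication, recombination and mitosis, and with exchanged controls 0.62, 0.50 and 0.20.

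Licensing and E2F genes led the replication list. *CDC6*, which loads the MCM helicase on origins, had signals of 2293, 2330 and 2442 untreated, 5079, 3946 and 4461 with doxorubicin, 2698, 2774 and 2824 with DMSO and 1212, 1257 and 1297 with nutlin-3. No arrays overlapped between a treated group and any other group, and the difference was 2.05 (SE 0.13, limma adjusted p = 5.4e-09). *E2F8*, a repressor of the E2F family, read 881, 1094 and 1079 untreated, 1310, 1264 and 1194 with doxorubicin, 1208, 1126 and 1137 with DMSO and 342, 392 and 348 with nutlin-3. Its doxorubicin arrays overlapped the DMSO arrays, so that the rise of 0.31 was small beside the fall of 1.64 on the log2 scale with nutlin-3. *E2F2*, an activator of the family, had 1013, 793 and 1157 untreated and 1020, 933 and 1024 with doxorubicin, which overlapped, and 916, 900 and 849 with DMSO against 279, 336 and 234 with nutlin-3. Only its nutlin-3 response was called (-1.61, with a doxorubicin interval of -0.27 to 0.31). *TK1*, the thymidine kinase of S phase, had responses of 0.18, not called, and -1.25, and with exchanged controls its difference of 1.43 was 0.67. Members with the other sign were *POLA1* and *PRIM2*, subunits of the polymerase alpha and primase complex, which fell with both agents and more with doxorubicin (differences of -0.77 and -0.65).

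In recombination *RAD54L*, a motor protein that moves along DNA, read 1113, 1146 and 1050 untreated, 1412, 1309 and 1361 with doxorubicin, 1493, 1485 and 1314 with DMSO and 498, 459 and 418 with nutlin-3. The nutlin-3 arrays lay below all others while the doxorubicin and DMSO arrays overlapped (responses 0.30 and -1.61, difference 1.91, SE 0.13, limma adjusted p = 2.2e-08). *EXO1*, the exonuclease that resects broken ends, fell with nutlin-3 (-1.32, with a doxorubicin response of 0.15 that was not called), and *RMI2*, a partner of the BLM helicase, was opposite at 0.52 and -1.09. Among mitotic genes the exceptions to the shared fall included *CDK1*, the kinase that drives entry into mitosis, and *ESPL1*, which encodes the cohesin protease separase. *CDK1* rose by 0.32 with doxorubicin, to arrays of 19951, 19947 and 19390 from 14852, 15937 and 16924, and fell by 0.87 with nutlin-3, to 7426, 7135 and 9995 from 13685, 14786 and 15947. *ESPL1* fell with nutlin-3 (-1.32), and its doxorubicin response of 0.11 was not called. The checkpoint kinase gene *BUB1B* (-1.76 and -1.16) and the kinesin gene *KIF14* (-1.53 and -0.93) fell more with doxorubicin, and the difference of *KIF14*, -0.60, was 0.45 with exchanged controls.

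**Figure D3:**
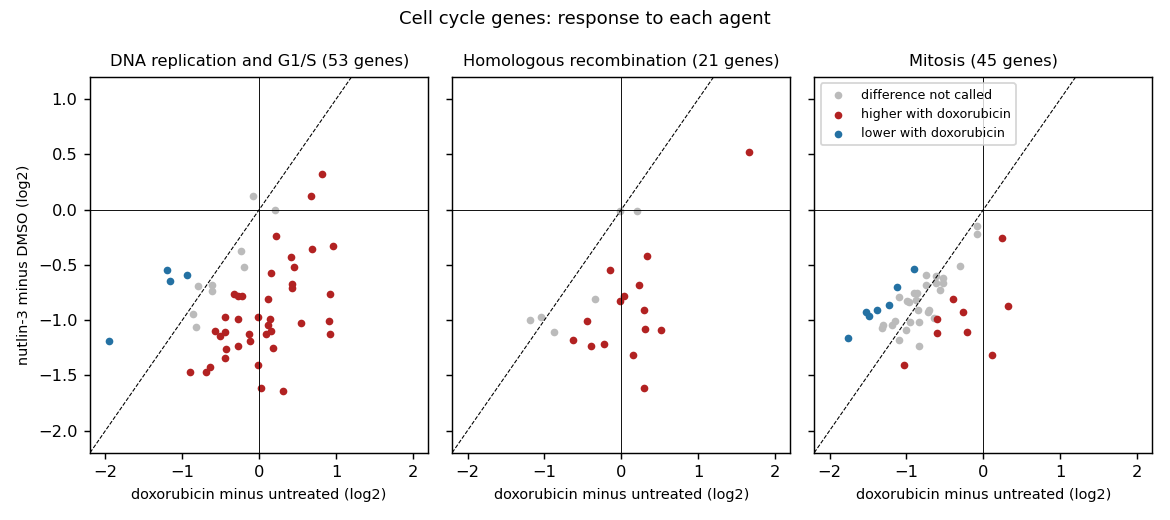
Response to doxorubicin (horizontal, log2) and to nutlin-3 (vertical, log2) of the measured genes of 3 cell cycle lists, with the dashed line marking equal responses. Most of the 53 replication genes and 21 recombination genes lie below the line, where 40 and 15 had a called positive difference, while most of the 45 mitotic genes lie along it.

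The promoters of these lists differ in the letters they hold. RefSeq promoter windows (GRCh38.p14, 250 bases before to 50 after the start) were found for 11013 of the 13673 genes tested and were searched on both strands. The E2F forms TTTCCCGC, TTTGGCGC, TTTGCCGC and TTTCGCGC were present in 21 of 45 replication windows (46.7%), in 7.69% of mitotic windows and in 5.15% of all windows. The cell cycle homology region (CHR) form TTTGAA was present in 28 of 39 mitotic windows (71.8%), in 4.44% of replication windows and in 10.2% of all. No E2F form contains the CHR form. Among the genes that fell with nutlin-3 only, 10.8% of windows held an E2F form, and among those that rose with doxorubicin and fell with nutlin-3, 10.7%. Within the replication list the genes with an E2F form had a median difference of 0.85 (21 genes) and those without one 0.72 (24 genes). The 100 bases before the start are shown for the 4 replication genes with the largest called differences among those with an E2F form there, to set them beside 3 mitotic genes with a CHR form that fell with both agents and whose difference was not called. Capitals mark the matched letters, on either strand.
*E2F2*, chr1:23531234-23531333, minus strand: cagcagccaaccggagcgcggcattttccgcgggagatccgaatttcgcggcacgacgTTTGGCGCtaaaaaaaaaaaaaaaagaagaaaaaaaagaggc
*E2F1*, chr20:33686386-33686485, minus strand: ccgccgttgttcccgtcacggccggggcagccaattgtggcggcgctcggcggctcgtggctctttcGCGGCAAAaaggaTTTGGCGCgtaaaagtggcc
*POLE*, chr12:132687343-132687442, minus strand: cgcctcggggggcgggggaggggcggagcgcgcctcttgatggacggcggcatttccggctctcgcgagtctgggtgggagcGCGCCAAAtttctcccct
*CDT1*, chr16:88803689-88803788, plus strand: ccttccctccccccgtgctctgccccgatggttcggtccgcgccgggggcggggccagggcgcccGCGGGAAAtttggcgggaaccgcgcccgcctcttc
*CENPA*, chr2:26785956-26786055, plus strand: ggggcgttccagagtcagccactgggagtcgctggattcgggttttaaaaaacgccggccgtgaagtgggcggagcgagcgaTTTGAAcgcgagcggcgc
*PRC1*, chr15:90994536-90994635, minus strand: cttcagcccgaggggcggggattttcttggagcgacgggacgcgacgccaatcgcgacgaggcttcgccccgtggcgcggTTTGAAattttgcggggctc
*KIF4A*, chrX:70290004-70290103, plus strand: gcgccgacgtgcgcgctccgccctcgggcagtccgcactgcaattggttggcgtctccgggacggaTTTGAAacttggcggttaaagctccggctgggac

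The first 4 genes fell with nutlin-3 and were not called with doxorubicin. Their responses to doxorubicin and nutlin-3 were 0.02 and -1.61 for *E2F2*, -0.02 and -1.41 for *E2F1*, 0.09 and -1.13 for *POLE*, the catalytic subunit of polymerase epsilon, and -0.12 and -1.19 for *CDT1*, a licensing factor. The 3 mitotic genes fell with both agents, with responses of -1.10 and -1.18 for *CENPA*, the centromeric histone gene, -1.0 and -1.09 for *PRC1*, a spindle midzone gene, and -1.19 and -1.04 for *KIF4A*, a chromosome kinesin gene. Their differences were 0.08 (SE 0.16), 0.09 (SE 0.11) and -0.14 (SE 0.11). A match of letters is a description of the window and not evidence of binding.

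Among doxorubicin-only rises, *SHISA2*, a modulator of Wnt and FGF receptors, had signals of 218, 245 and 213 untreated and 5262, 4031 and 4998 with doxorubicin, against 180, 155 and 150 with DMSO and 144, 145 and 138 with nutlin-3. The doxorubicin arrays stood alone, and its difference of 4.46 (SE 0.18, limma adjusted p = 5.8e-11) was the largest of the class among genes whose nutlin-3 response was bounded (-0.43 to 0.11). *ADCYAP1R1*, the receptor of the neuropeptide PACAP, had arrays of 1088, 1048 and 999 with doxorubicin and between 53.6 and 85.6 in all other groups, a difference of 3.70 (SE 0.26). *GCH1*, which makes the first step of tetrahydrobiopterin synthesis, gave 5908, 6192 and 6672 with doxorubicin and between 528 and 840 elsewhere, a difference of 3.12 (SE 0.15). In both genes the nutlin-3 arrays overlapped the DMSO arrays. *CRISPLD2*, a secreted protein gene, *CDO1*, the cysteine dioxygenase gene, *ADAMTS5*, an aggrecan-cleaving protease gene, and *PCDH8*, a protocadherin gene, had differences of 3.76, 3.19, 3.13 and 3.10. *ADM*, which encodes the vasodilator adrenomedullin, had one of 2.96, and of 1.74 with exchanged controls. That of *CDO1* was 1.38 with exchanged controls. DMSO itself lay 0.91 above untreated for *CDO1* and 0.61 for *ADM*. Nutlin-3 cells lay 0.73 and 0.86 above untreated, both called, and -0.17 and 0.25 from DMSO, neither called. Their place in this class thus rests on the control.

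Among the falls with doxorubicin alone, *GPC6*, a glypican of the cell surface, went from 5537, 5278 and 5807 to 371, 305 and 256, while DMSO read 4351, 3809 and 3999 and nutlin-3 4511, 4016 and 3612. The nutlin-3 and DMSO arrays overlapped and the doxorubicin arrays lay below all others (difference -4.10, SE 0.16, limma adjusted p = 5.8e-11). *TENM2*, a teneurin adhesion gene, went from 18406, 15705 and 17103 to 1324, 1616 and 1663 with doxorubicin and read 16527, 14701 and 12751 with nutlin-3 (difference -3.52, SE 0.15). *BCAT1*, the cytosolic branched-chain aminotransferase gene, *NEGR1*, a neuronal adhesion gene, and *INPP4B*, a phosphoinositide phosphatase gene, had differences of -3.50, -3.13 and -3.08. *IL31RA*, a cytokine receptor gene, *BNC2*, a zinc-finger gene, and *PPA2*, the mitochondrial pyrophosphatase gene, had differences of -2.57, -2.45 and -2.41, and that of *BNC2* was -0.77 with exchanged controls.

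By function, genes of MHC class I antigen presentation were mostly higher with doxorubicin. Of 16 measured members 14 had a positive difference (87.5%, against 21.8% of all genes) and 0 a negative one, and the median responses were 1.00 to doxorubicin and 0.07 to nutlin-3. The median difference was 0.87, and 0.55 with exchanged controls. *TAP1*, a subunit of the peptide transporter, rose with both agents, from 711, 673 and 711 to 7182, 6592 and 7837 with doxorubicin and from 801, 764 and 689 to 2735, 2243 and 2127 with nutlin-3. The treated groups stood clear of both controls and of each other (difference 1.70, SE 0.15, limma adjusted p = 1.8e-07). *ERAP1*, the peptidase that trims peptides in the endoplasmic reticulum, had a difference of 1.33 (SE 0.27), which was 0.18 with exchanged controls. The HLA genes share sequence, so single members can share signal.

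Lysosomal genes were more often higher than lower, 12 against 3 of 30 (40% and 10%, against 21.8% and 17.7% of all genes), with a median difference of 0.30, and of 0.64 with exchanged controls. *CTSL*, which encodes the protease cathepsin L, went from 4552, 4280 and 3834 to 16114, 14635 and 14371 with doxorubicin and read 5824, 4652 and 4698 with DMSO and 6076, 4988 and 4860 with nutlin-3. Its doxorubicin arrays stood clear of all others, and those of DMSO and nutlin-3 overlapped (difference 1.76, SE 0.15, limma adjusted p = 1.7e-07). *FUCA1*, a lysosomal fucosidase and p53 target, rose with both by 3.51 and 1.55. *CTSC*, a dipeptidyl peptidase, and *LIPA*, the lysosomal acid lipase, had differences of -0.78 and -0.76.

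Genes of amino acid supply under the transcription factor ATF4 had more negative than positive differences. Of 35 members 16 were called negative (45.7%, against 17.7% of all genes) and 6 positive, with a median of -0.48, and -0.83 with exchanged controls. *ASNS*, the asparagine synthetase gene, went from 10616, 11926 and 10669 to 2981, 3159 and 3051 with doxorubicin, while DMSO read 9284, 10545 and 11438 and nutlin-3 10254, 10135 and 10058. Its nutlin-3 response of -0.03 lay within -0.21 to 0.14, and the difference was -1.81 (SE 0.12, limma adjusted p = 8.4e-09). *SLC7A11*, the cystine importer gene, fell with both agents (-2.86 and -0.63). Members in the other direction were *CEBPB*, a transcription factor gene of inflammation (difference 1.17), and *SLC7A3*, an arginine transporter gene (1.13). *CEBPB* rose by 1.21 with doxorubicin. *SLC7A3*, a dim gene with arrays between 50.1 and 187, fell with nutlin-3 (-0.76), and its doxorubicin response of 0.37 was not called.

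RNA-binding genes of splicing fell with doxorubicin, 22 of 26 HNRNP and SR members against 5 with nutlin-3 (3504 and 1900 of all 13673 genes). Their difference was negative for 14 (53.8%, against 17.7% of all genes) and positive for 0, with a median of -0.35, and of -0.60 with exchanged controls. *HNRNPA2B1* (-1.14 and -0.12) and *SYNCRIP* (-0.76 and 0.01) led the list. The probe sets of *HNRNPA2B1* did not agree on direction, and its difference of -1.01 was 0.44 when gene-specific probe sets (neither _x_at nor _s_at) were preferred. The proteasome list had 7 lower (25.9%, against 17.7% of all genes) and 1 higher of 27, led by *PSMD3* (difference -1.01) and *PSMD11* (-0.81), and the difference of *PSMD11* was 0.53 and not called (limma adjusted p = 0.16) with those other probe sets. Cytosolic ribosomal protein genes had 9 lower (23.7%) and 0 higher of 38. Their median responses were -0.03 to doxorubicin and 0.18 to nutlin-3, but DMSO stood -0.19 from untreated in the same list, and the median difference of -0.22 was 0.08 with exchanged controls.

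Of 24 glycolytic members 10 were lower (41.7%) and 3 higher (12.5%) with doxorubicin, with a median of -0.14. *ENO2*, the neuronal enolase gene, and *PFKM*, the muscle phosphofructokinase gene, had differences of -1.37 and -1.28 with nutlin-3 responses of -0.36 and -0.02, neither called. *PFKFB4*, named above, and *PFKFB3*, its paralog, were higher (2.74 and 0.82), the latter at -0.39 with exchanged controls. The NF-kB list had 7 higher (43.8%) and 2 lower (12.5%) of 16. Its higher members were led by *PTGS2*, the cyclooxygenase-2 gene (2.08, and -0.16 with exchanged controls), and *IL1B* (1.60). *IL1B* was dim, with arrays between 12.9 and 233, and its difference was imprecise (SE 0.60, limma adjusted p = 0.044). The next 3 lists had shares of higher and lower calls near those of all genes (21.8% and 17.7%), and their counts say little about the lists. In interferon-stimulated genes 6 were higher and 6 lower of 22 (27.3% each). *ISG15*, the ubiquitin-like modifier gene, had a difference of 2.30 and *SAMD9*, an antiviral gene, one of -1.35. In the list of the unfolded protein response, 6 were higher (27.3%) and 5 lower (22.7%) of 22, with *ERN1*, the stress sensor IRE1, at 1.44 and *HERPUD1* at -1.07. Immediate early genes had 7 higher (26.9%) and 4 lower (15.4%) of 26, with *ATF3* at 2.24 and 0.14 with exchanged controls.

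**Figure D4:**
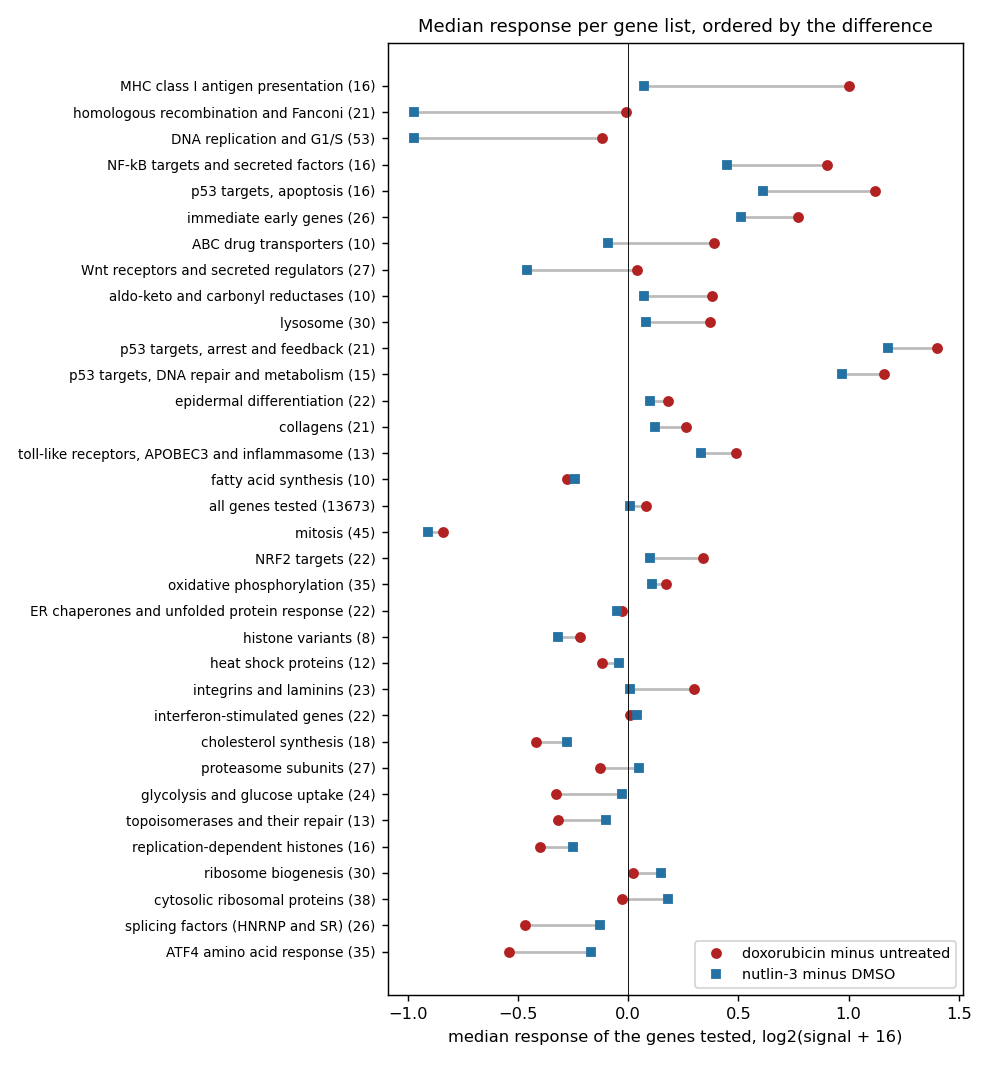
Median response to doxorubicin (circles) and nutlin-3 (squares) of the measured genes in each function list and over all 13673 genes, in log2 units, ordered by the median difference, with the number of genes in brackets. MHC class I, recombination and replication lists lie at the top with median differences of 0.87, 0.81 and 0.78, and the ATF4 and splicing lists at the bottom with -0.48 and -0.35, while all genes together have 0.07.

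Nutlin-3-only falls were led by genes outside the cell cycle as well as in it. *GPR19*, an orphan receptor gene, read 698, 598 and 761 untreated, 705, 631 and 688 with doxorubicin, 578, 759 and 673 with DMSO and 198, 171 and 166 with nutlin-3. The 3 other groups overlapped and the nutlin-3 arrays lay below them (difference 1.80, SE 0.18, limma adjusted p = 1.1e-06). *SHISA3*, a relative of *SHISA2*, and *FREM2*, a basement membrane gene, had nutlin-3 responses of -1.33 and -1.30 and doxorubicin responses of 0.15 and 0.10 that were not called. *C1QTNF2*, a secreted relative of adiponectin, fell by 1.87 on the log2 scale against DMSO, but DMSO lay 0.90 above untreated and the difference of 1.66 was -0.14 with exchanged controls.

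Among nutlin-3-only rises, *MMP3*, which encodes the matrix protease stromelysin-1, read 793, 947 and 1102 untreated, 956, 893 and 936 with doxorubicin, 1657, 1273 and 1241 with DMSO and 5454, 5393 and 4675 with nutlin-3. Doxorubicin stayed within the range of untreated cells, and the difference was -1.91 (SE 0.18, limma adjusted p = 4e-07). *GLRX*, the glutaredoxin gene, gave 11533, 12305 and 13405 with nutlin-3 and between 3642 and 5359 in the other 3 groups (difference -1.28, SE 0.17). *YPEL2* and *ELAPOR1*, a gene of the endosome and lysosome, rose by 1.42 and 1.57 with nutlin-3 and had doxorubicin responses of -0.03 and 0.03. *GBP3*, an interferon-induced GTPase gene, *ASTN2*, a neuronal migration gene, and *LINC01711*, a non-coding RNA, had differences of -1.71, -1.66 and -1.53. *TGM2*, the transglutaminase 2 gene, rose by 1.59 against DMSO, which itself lay 1.13 below untreated, and its difference of -1.63 was 0.63 with exchanged controls.

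Most p53 targets rose with both agents. Over all 13673 genes, 1713 rose and 1900 fell with nutlin-3, and 4112 rose and 3504 fell with doxorubicin. In the arrest and feedback list 21 of 21 rose with nutlin-3 and 20 with doxorubicin. The difference was higher for 8 (38.1%, against 21.8% of all genes) and lower for 3 (14.3%, against 17.7%), with a median of 0.25. In the apoptosis list 13 of 16 rose with doxorubicin and 11 with nutlin-3. The 15 metabolic and repair targets had 10 rises and 2 falls with doxorubicin and 9 rises and 1 fall with nutlin-3. Their difference was higher for 5 (33.3%) and lower for 1 (6.67%). *CDKN1A* had responses of 2.47 and 2.30, with a difference of 0.17 that was not called and whose 95% interval was -0.15 to 0.48 (limma adjusted p = 0.4). *MDM2*, which p53 induces and whose product nutlin-3 blocks, went from 3590, 3383 and 3527 to 9226, 9672 and 9327 with doxorubicin and from 4359, 4649 and 4247 to 20516, 19161 and 18859 with nutlin-3. No groups overlapped, and the difference was -0.72 (SE 0.10, limma adjusted p = 3e-05), so nutlin-3 raised it more. *MDM4*, its relative, had responses of 0.02 and 0.01.

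*CCNG1*, which encodes cyclin G1, was the member of the list that nutlin-3 alone changed. Its arrays read 10331, 11751 and 11520 untreated, 10058, 11224 and 10470 with doxorubicin, 8324, 9647 and 9909 with DMSO and 16263, 18007 and 19455 with nutlin-3. The first 2 groups overlapped and nutlin-3 lay above all, with a difference of -1.03 (SE 0.13, limma adjusted p = 8.7e-06). *BAX*, the pore-forming apoptosis gene, rose by 0.53 and 1.19. It was the 1 member of 16 in the apoptosis list (6.25%, against 17.7% of all genes) that was lower with doxorubicin. In this list 8 were higher (50%, against 21.8% of all genes). Among these were *PIDD1*, the gene of a death-domain platform protein, and *APAF1*, the core of the apoptosome, with differences of 1.03 and 0.95. With exchanged controls *PIDD1* stood at -0.07 and the median of the list, 0.49, at 0.04. *PLK3*, a stress-activated polo kinase gene, rose by 2.90 and 1.53, and *GADD45A* by 1.98 and 1.18, the latter with a difference of 0.79 that was -0.41 with exchanged controls.

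Shared changes of unequal size were mostly larger with doxorubicin: 446 genes rose more and 321 fell more with it, against 60 and 95 with nutlin-3. Among the 60, *ITGA2*, the collagen-binding integrin gene, rose from 736, 805 and 871 to 1268, 957 and 1318 with doxorubicin and from 560, 467 and 511 to 3134, 2820 and 2964 with nutlin-3. Its groups did not overlap (difference -1.97, SE 0.17, limma adjusted p = 1.8e-07), and with exchanged controls the difference was -0.70. *EBI3*, a cytokine subunit gene, rose by 0.70 and 2.48, *CCDC148* by 1.02 and 2.52 and *DCLK1*, a microtubule-binding kinase gene, by 0.65 and 2.10. *COL3A1*, the collagen III gene, fell by 0.45 with doxorubicin and by 1.54 with nutlin-3, and the kinesin gene *KIFC1* fell by 0.28 and by 1.39. On the doxorubicin side *CSTA*, which encodes cystatin A, had a difference of 3.27, the aldo-keto reductase gene *AKR1B10* of 2.84, and *ANXA10* and *GPX8* of -2.75 and -2.95.

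The topoisomerases II, on which doxorubicin acts, had unlike values. *TOP2B*, the topoisomerase II of resting cells, was opposite, with signals of 5063, 5116 and 4639 untreated, 3277, 2899 and 3488 with doxorubicin, 5739, 5085 and 4730 with DMSO and 6776, 6691 and 6123 with nutlin-3. The controls overlapped, the treated groups did not reach them, and the difference was -0.95 (SE 0.13, limma adjusted p = 2.2e-05). *TOP2A*, the form of dividing cells, fell with both agents by 0.61 and by 0.60 (difference -0.01, 95% interval -0.48 to 0.45). Its probe sets did not agree on direction, DMSO lay 0.80 below untreated, and with exchanged controls its difference was 1.59. Of the 13 topoisomerase and break repair genes 3 were higher (23.1%, against 21.8% of all genes) and 5 lower (38.5%, against 17.7%), with *XRCC4* and *LIG4*, partners in end joining, at -1.58 and -1.06, and *XRCC4* at 0.68 and not called (limma adjusted p = 0.24) with other probe sets.

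Long genes were more often lower with doxorubicin than short ones. Spans came from the RefSeq gene table and were found for 13658 genes. In genes of under 20 kb (5364 genes) 23.1% were higher and 13.1% lower with doxorubicin, and in genes of over 500 kb (211 genes) 5.69% and 47.9%. The median difference ran from 0.14 in the shortest to -0.33 at 200 to 500 kb and -0.67 above 500 kb, where it was -0.24 with exchanged controls. Median nutlin-3 responses stayed between -0.04 and 0.04 in all 6 bins. Of the longest genes 53.1% fell with doxorubicin and 13.3% with nutlin-3. Several genes named above are long, with *GPC6* at 1190 kb, *TENM2* at 1290 kb and *NEGR1* at 887 kb among the doxorubicin-only falls and *NTM* at 966 kb, *NAV3* at 641 kb and *KCNQ5* at 577 kb among those that fell with doxorubicin and rose with nutlin-3. *ASTN2*, at 992 kb, rose with nutlin-3 and was not called with doxorubicin. Genes are not independent replicates, and no test was made over them.

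**Figure D5:**
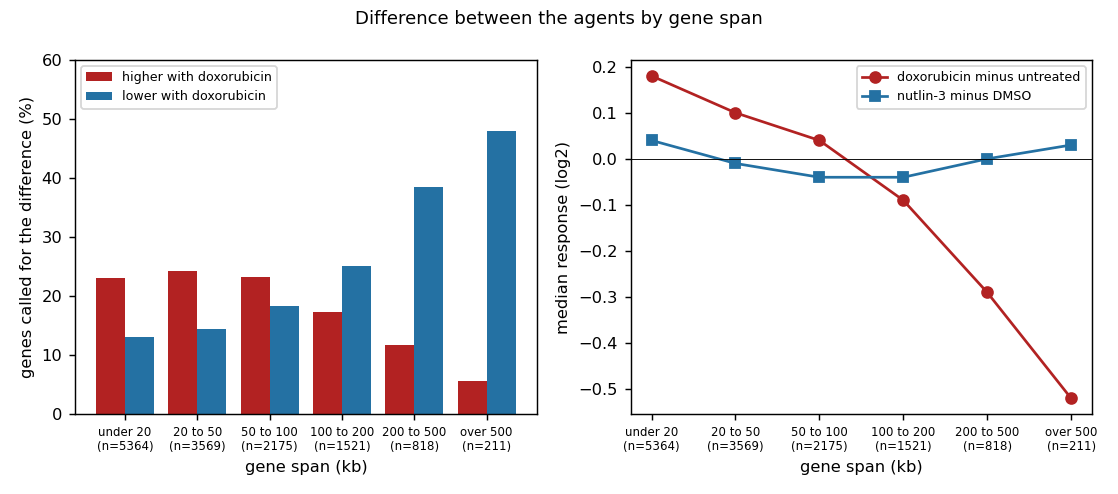
Left, share of genes (%) called higher or lower with doxorubicin for the difference, and right, median response to each agent (log2), in 6 bins of gene span, with the number of genes per bin. The share called lower rises from 13.1% in the shortest bin to 47.9% in the longest, and the doxorubicin median falls from 0.18 to -0.52.

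Markers of other cell types were also read. Of 10 leukocyte markers 5 were tested, and their summed signal was 2948 to 3776 with doxorubicin, 316 to 453 untreated, 249 to 363 with DMSO and 799 to 1087 with nutlin-3. With doxorubicin most of it was *TREM2*, a myeloid receptor gene, at 2809, 2178 and 2500, while with nutlin-3 it read 246, 188 and 187. *LAPTM5*, a lysosomal protein gene of blood cells, rose with both agents (2.35 and 1.84), as did the integrin gene *ITGB2* (1.03 and 1.31), and their differences of 0.50 and -0.28 were not called. *PTPRC*, *CD14* and *TYROBP* stayed under the filter. The summed signal of 5 tested epithelial markers was 19748 to 24622 with doxorubicin, 27658 to 28877 untreated, 20490 to 21162 with DMSO and 26007 to 27457 with nutlin-3. Their part in the differences was not tested.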

How the data were processed

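The deposited values are linear intensities (signals) of 12 arrays, made by the authors with MAS5, per the submitters' processing notes. Their software version and scaling settings are not given in the sources used here. Signals were analysed as log2(signal + 16), a scale that understates the change of dim genes. Control probe sets were left out, each gene with a single annotated symbol was represented by its probe set of highest mean, and genes under the 40th percentile of mean level (49.3 signal units) were dropped, which left 13673. One limma 3.58.1 fit (R 4.3.3, lmFit and eBayes with an intensity trend) of 4 group means gave each response and the difference, with Benjamini-Hochberg adjustment over all genes and a threshold of 0.05. The fit was tested on simulated data.

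The members, gene lists and comparisons were chosen with earlier results of these data known. Genes were named by rule: *MDM2*, *MDM4*, *CDKN1A*, *TOP2A* and *TOP2B*, the genes of largest difference in each class whose arrays did not overlap and whose probe sets did not conflict, and up to 2 called members at each end of every list. For genes that changed with 1 agent, the other response also had to be bounded within 1.5-fold. The transcript of the p53 gene itself is not reported here. Replicate numbers were not used to pair samples. Deviations of same-numbered arrays correlated at -0.09 to 0.17 over 18 pairs, and those of other-numbered arrays at -0.18 to 0.15. These ranges do not settle whether the numbers pair samples. Alternatives covered scaling, pseudocount, filter, probe sets, array weights, thresholds, replicates and controls.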

Additional observations from a re-analysis of the deposited data

Results flagged for a closer look

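Ratios of 3′ to 5′ probe sets for control transcripts lie outside the expression comparison and were above the control level with doxorubicin. For *ACTB* the mean ratio was 3.12 and for dap, a bacterial transcript added during labelling, 5.79, against 1.53 and 2.71 in untreated cells (exact 2-sided permutation p = 0.1 for each, the smallest that 3 against 3 arrays allow). For *GAPDH* the ratio was 1.07 ± 0.116 against 1.02 ± 0.0356 (SD, n = 3, exact permutation p = 0.6).

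The 2 agents moved 494 genes (3.61%) in opposite directions, each with a called response to both agents. A called difference, the interaction term in limma, was part of how this class was defined and is no further support.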

How the results depend on the processing

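Counts moved by over 1.5 times under 4 settings. Median centring gave 297 opposite genes and 601 that changed the same way, and 39.6% of its calls were higher with doxorubicin. An adjusted p under 0.01 gave 229 and 461. A requirement of at least 2-fold left 1828 genes called, 1106 with doxorubicin only, 114 with nutlin-3 only, 320 opposite and 266 the same way. Exchanged controls, added after the data were seen, gave 1151 genes with nutlin-3 only and 1490 opposite. Leaving out each array in turn gave 4815 to 5321 genes called, 2931 to 3206 with doxorubicin only, 437 to 596 with nutlin-3 only, 356 to 502 opposite and 681 to 900 the same way. With a replicate block, which treats same-numbered arrays as paired, 5688 genes were called, 582 of them opposite, and no count moved by over 1.5 times. Of 185 genes that the naming rule took, 182 were called. With exchanged controls 21 reversed, meaning a change of sign whether called or not, and 20 kept their sign but lost their call. Some reversals were not called, such as *PIDD1* (limma adjusted p = 0.86), and others were, such as *ROR1* (limma adjusted p = 3.1e-06). Those that reversed were *ABCB1* (-0.37), *C1QTNF2* (-0.14), *DNAJB1* (0.10), *EBP* (-0.26), *GADD45A* (-0.41), *H2AX* (0.67), *H2BC11* (-0.34), *HSD17B7* (-0.19), *HSP90B1* (0.27), *HSPB8* (-0.13), *KIF14* (0.45), *KRT14* (2.03), *LOC105379499* (-0.83), *NOP58* (-0.09), *PFKFB3* (-0.39), *PIDD1* (-0.07), *PTGS2* (-0.16), *ROR1* (1.98), *SOSTDC1* (3.04), *SREBF1* (0.88) and *TGM2* (0.63). Compared directly, without controls, *H2AX* (0.11), *KRT14* (0.24), *SOSTDC1* (0.71) and *SREBF1* (0.04) reversed. There *H2AX* and *KRT14* were not called (limma adjusted p = 0.45 and 0.41). With gene-specific probe sets (neither _x_at nor _s_at) preferred, *HNRNPA2B1* (0.44), *PSMD11* (0.53) and *XRCC4* (0.68) reversed. The cause was not tested. Median differences moved by more than the spread between replicates in 30 of 37 lists under median centring and 28 with exchanged controls. The same held for 20 lists in the direct comparison and 13 with doxorubicin array 1 alone. Signal over background limits dim genes.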
